A study of Homo sapiens with 7 samples.

Results

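Binding of Rb, the retinoblastoma tumour suppressor protein, was examined at 9 genes that carry DNA methylation through cell division or build Polycomb repressive complex 2 (PRC2): DNMT1, DNMT3A, DNMT3B, UHRF1, HELLS, EZH1, EZH2, EED and SUZ12. These were taken by name from the 19970 protein-coding genes of GENCODE 44 on chromosomes 1 to 22 and X. A gene was counted as bound in a library when a called Rb peak overlapped the stretch from 2000 bp before to 500 bp after the transcription start site (TSS) of any of its transcripts, and peaks elsewhere within the gene were looked for as well. Rb was mapped by CUT&RUN, in which an antibody tethers a nuclease that releases the DNA around a bound protein for sequencing.

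All 7 libraries were made from the established breast cancer cell line ZR-75-1, which expresses the oestrogen receptor. The Rb antibody was used on parental cells after 4 days with DMSO (2 libraries), on parental cells after 4 days with 500 nM palbociclib, an inhibitor of the kinases CDK4 and CDK6 that phosphorylate Rb (2 libraries), and on RB1-knockout (RB1 KO) cells after the same DMSO or palbociclib treatment (1 library each). The IgG2a negative-control antibody was used on palbociclib-treated parental cells (1 library). The RB1 KO cells were derived by CRISPR-Cas9 editing and sorting of single cells, so they stand for a clone. The libraries of a parental group were separate biological replicates of an experiment carried out once, so their spread does not cover variation between experiments. Peak lists measure no RNA or protein, so the labelled cell line was not checked against markers and nothing below concerns expression.

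The peak lists differed greatly in length. Parental cells gave 996 and 816 peaks after DMSO and 8399 and 8256 after palbociclib, whereas the RB1 KO lists held 65 and 51, of which 4 and 5 lay on chromosomes 1 to 22 and X, and the IgG2a list held 2648. The files give no read totals. The lowest local background in a list, which scales with sequenced fragments though not with them alone, was 0.465 to 0.571 in the 4 parental Rb lists. It was 0.6545 and 0.446 in the RB1 KO lists after DMSO and palbociclib, and 0.451 in the IgG2a list. A part of depth in the differences in peak number was not tested. Editing of RB1 itself cannot be read from peaks, and the short lists of the RB1 KO cells are the only sign of it in these files.

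DNMT1 copies methylation at CpG dinucleotides onto the new DNA strand after replication. UHRF1 recognises the half-methylated CpG and histone H3 at the fork and brings DNMT1 there, and HELLS (LSH) is a chromatin remodeller that opens nucleosomal DNA to methylation. DNMT3A and DNMT3B set methylation on DNA that carries none. PRC2 methylates lysine 27 of histone H3, with EZH2 or its homologue EZH1 as the catalytic subunit, EED as the subunit that reads the methylated lysine and SUZ12 as the scaffold. Several of these genes, EZH2, EED, DNMT1, UHRF1 and HELLS among them, are known as targets of E2F transcription factors, the proteins through which Rb reaches many promoters in cells that leave the cell cycle.

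The sequences under the palbociclib peaks are shown first, since the letters that E2F proteins favour were found under the peaks of all 7 genes bound in both palbociclib libraries, and in 16.3% of 5555 promoter regions bound in both at large (median length 653 bp, against 454 to 1356 bp at the 7 genes). E2F was searched for as TTTGGCGC, TTTCCCGC, TTTGCCGC and TTTCGCGC on both strands. Each line gives 30 bases of hg38, 5′ to 3′ on the strand of the gene, with the match in capitals. A match in the antisense direction reads as its reverse complement.
DNMT1, chr19:10194937-10194966, minus strand: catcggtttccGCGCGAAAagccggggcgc
DNMT1, chr19:10194617-10194646, minus strand: tgcccgggctgTTTGGCGCcaaaatggacc
UHRF1, chr19:4909476-4909505, plus strand: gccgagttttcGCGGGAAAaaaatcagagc
UHRF1, chr19:4909714-4909743, plus strand: ctttgcaaaacTTTCCCGCgcggccagccc
UHRF1, chr19:4909973-4910002, plus strand: cccgagcccgaTTTCGCGCgccctgagttc
HELLS, chr10:94545701-94545730, plus strand: aaccgcaagctGCGCCAAAtctcgcgcagc
HELLS, chr10:94545769-94545798, plus strand: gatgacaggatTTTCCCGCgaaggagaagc
EZH2, chr7:148884272-148884301, minus strand: gggctgccgcgTTTGGCGCtcggtccggtc
EZH1, chr17:42745137-42745166, minus strand: gcggggttttgGCGGCAAAtgacagtagtg
EED, chr11:86244950-86244979, plus strand: ccgggagggcgGCGGGAAAagggcaagacg
SUZ12, chr17:31936807-31936836, plus strand: cgacccctaatTTTCCCGCgaattcagttc
SUZ12, chr17:31937348-31937377, plus strand: gacggcttcggGCGGCAAAtccggcggcgg

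The second DNMT1 stretch is a palindrome in which a match on each strand overlaps the other, so DNMT1 was counted with 3 matches. In these genes the match nearest to the TSS of the main (canonical) transcript lay at +1 bp in DNMT1, +4 bp in EZH2, -5 bp in HELLS and -11 bp in UHRF1. It lay farther out in EZH1, at -112 bp, SUZ12, at -186 bp, and EED, at +211 bp.

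Rb was bound at 7 of the 9 promoters in both palbociclib libraries. These were DNMT1, UHRF1, HELLS, EZH1, EZH2, EED and SUZ12, and the share of 77.8% stood beside 34.9% of all protein-coding genes. With DMSO, DNMT1, EZH1 and EZH2 were bound in both libraries, 33.3% of the 9 genes beside 2.90% of all genes. EED, HELLS and SUZ12 had no peak in either DMSO library and a peak in both palbociclib libraries, a pattern seen at 28.4% of all genes, so 3 of 9 was close to the background. UHRF1 was bound in both palbociclib libraries and in DMSO replicate 1 alone (1 of 9, beside 3.66% of all genes). DNMT3A had a peak in palbociclib replicate 2 alone (1 of 9, beside 8.79%), and DNMT3B had none in any library. Lacking a peak was common, since 39.6% and 39.0% of all genes had a promoter peak in palbociclib replicates 1 and 2. With the parental lists cut to the 816 strongest peaks of each by −log10 q, the number of peaks in the shortest, the count with palbociclib fell to 4 of 9 (DNMT1, EZH1, EZH2 and SUZ12, beside 3.82% of all genes) and SUZ12 alone remained among the genes bound only with palbociclib (1 of 9, beside 0.736% of all genes).

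None of the 9 promoters had a peak in the IgG2a library or in either RB1 KO library. Among all genes the IgG2a list marked 1.95% and the RB1 KO lists together 0.0100%, so 0 of 9 is close to what either list gives for genes at large. The nearest IgG2a peak to the canonical TSS of any of these genes was 141 kb away, at DNMT3B, and 222 kb or more at the other 8. With 1 library for each of these conditions there was no replicate check. Outside the promoter windows no peak was found within any of the 9 genes in any of the 7 lists. The share of all genes with such a peak was not counted, so this is not read as a trait of these genes.

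**Figure D1:**
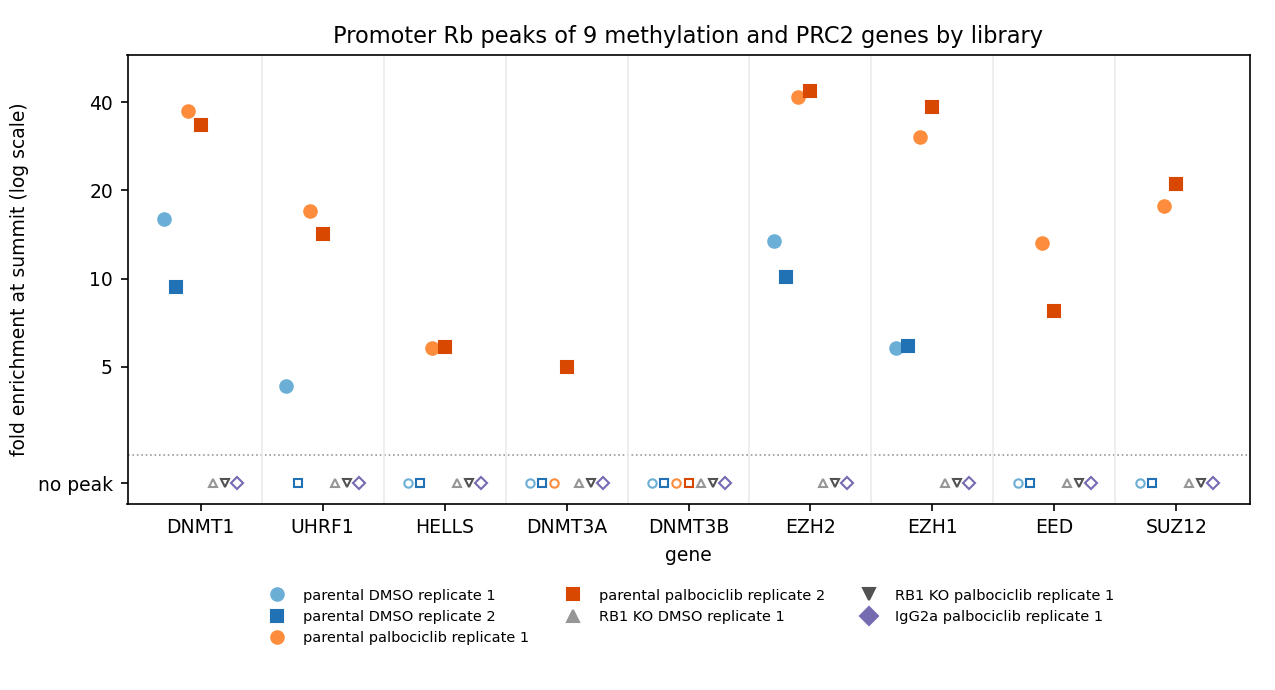
Fold enrichment at the summit of the promoter Rb peak (log scale) for each of the 9 genes, with 1 point per library, filled where a peak was called and open on the lower strip where none was. EZH2, DNMT1 and EZH1 stand highest with palbociclib, between 30.5 and 43.6, and every RB1 KO and IgG2a point lies on the strip without a peak.

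DNMT1 carried the strongest DMSO peak of the genes that maintain methylation. Fold enrichment, which the authors' peak caller computes at the summit from the pileup of fragments and the local background, was 15.9 and 9.34 in the DMSO libraries and 37.2 and 33.4 in the palbociclib libraries. Both palbociclib values lay above both DMSO values, and the DMSO pair was the more widely spread. The means were 12.6 ± 4.67 and 35.3 ± 2.72 (SD, n = 2 each). Between the means of the log2 values the difference was 1.53, or 2.89-fold. The exact permutation p was 0.333, two-sided, the smallest that 2 libraries against 2 allow. Behind these ratios stood 28 and 14 fragments at the summit after DMSO, then 61 and 56 after palbociclib. The peak began 42 bp before the TSS in both palbociclib libraries and reached 492 and 684 bp into the gene, with summits at +78 and +69 bp in a coding exon. It covered chr19:10194461-10194995 in palbociclib replicate 1. A second, weak peak of both palbociclib libraries lay 36 kb further upstream at other annotated DNMT1 start sites, with fold enrichments of 5.20 and 4.29, and it also overlapped the promoter window of S1PR2, a receptor for sphingosine 1-phosphate.

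UHRF1 was bound weakly with DMSO and broadly with palbociclib. It had a fold enrichment of 4.30 in DMSO replicate 1, no peak in DMSO replicate 2, and values of 17.1 and 14.1 with palbociclib. The single DMSO value lay below both palbociclib values, and no test was made with 1 DMSO value. The UHRF1 peaks were the widest of the 9 genes, at 1188 and 1109 bp with palbociclib against 180 bp in DMSO replicate 1. Their summits sat in an intron at +358 and +294 bp, close to the +337 bp of the DMSO summit.

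HELLS had the lowest enrichment of the 7 genes bound in both palbociclib libraries and the smallest spread. Its values were 5.79 and 5.84, with no peak in either DMSO library. Both summits fell on the same base, +95 bp in the 5′ UTR exon, and the peaks were 371 and 454 bp wide. Pileup at the HELLS summit was 16 and 17 fragments, over a local background of 1.94 and 2.08 that was among the highest of the 9 genes. EED had pileups of 19 and 11 fragments over a background of 0.516 and 0.549, the lowest of each list, and fold enrichments of 13.2 and 7.75. By fold enrichment EED was above HELLS in both libraries, but by fragments only in palbociclib replicate 1. The order of HELLS and EED therefore turned on the background in palbociclib replicate 2.

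The de novo methyltransferases were not bound in both palbociclib libraries. Most genes at large were not either, since 34.9% of all protein-coding genes were bound in both. DNMT3A had 1 peak, which ended 78 bp short of the canonical TSS. It lay within the annotated gene, whose first start site is farther upstream at chr2:25342590. The peak was called in palbociclib replicate 2, with a fold enrichment of 4.98, 8 fragments at the summit and a −log10 q of 3.63. In that library 80.2% of bound genes ranked at or above it. DNMT3B had no peak at any of its 17 distinct start sites. The lowest promoter peak called in the parental libraries rested on 5 or 6 fragments, so weaker binding at either gene was not detectable at this depth.

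EZH2 had the highest enrichment of the 9 genes with palbociclib. Its fold enrichment was 13.5 and 10.1 with DMSO and 41.7 and 43.6 with palbociclib, so the groups did not overlap. The means were 11.8 ± 2.37 and 42.7 ± 1.33 (SD, n = 2 each). Between the means of the log2 values the difference was 1.87, or 3.66-fold (exact permutation p = 0.333, two-sided). EZH2 ranked 76th of the 6974 genes bound in both palbociclib libraries, with 87 and 94 fragments at the summit. Unlike those of DNMT1 and EZH1, its summits lay upstream of the gene in all 4 libraries, at -338 and -139 bp with DMSO and -258 and -309 bp with palbociclib, while the palbociclib peaks extended from -742 and -862 bp to +233 bp. The E2F match at +4 bp lay inside the palbociclib peaks, 262 and 313 bp from their summits. The 151 bases around the EZH2 summit of palbociclib replicate 1 are shown because they hold none of the E2F letters, with the match to GGGCGG, the letters bound by SP factors, in capitals as its reverse complement.
EZH2, chr7:148884474-148884624, minus strand: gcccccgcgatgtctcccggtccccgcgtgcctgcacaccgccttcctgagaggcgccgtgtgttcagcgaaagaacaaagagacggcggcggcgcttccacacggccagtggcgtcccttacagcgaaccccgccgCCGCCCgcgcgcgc

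EZH1 had a low DMSO value and a palbociclib value like that of DNMT1. Its fold enrichment was 5.79 and 5.89 after DMSO, then 30.5 and 38.6 after palbociclib. The groups were far apart beside their spread, with means of 5.84 ± 0.0729 and 34.6 ± 5.78 (SD, n = 2 each). Between the means of the log2 values the difference was 2.56, or 5.88-fold (exact permutation p = 0.333, two-sided). Fragment pileup was 10 and 11 after DMSO and 59 and 68 after palbociclib, and peak width 264 and 435 bp, then 982 and 994 bp. EZH1, the homologue of EZH2 that is retained in many non-dividing cells, had the lowest DMSO value and the largest difference of the 3 genes bound in all 4 parental libraries.

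SUZ12 and EED, the non-catalytic core subunits of PRC2, were bound with palbociclib only. SUZ12 had fold enrichments of 17.7 and 21.1 with palbociclib, with 51 and 53 fragments, summits at -90 and -106 bp and nearly identical edges, starting 269 bp before the TSS in both libraries. EED had 13.2 and 7.75, the widest relative spread of the 7 genes, with summits at +146 and +21 bp in its 5′ UTR exon. The EED peak also overlapped a promoter window of ENSG00000288809, a long non-coding RNA on the opposite strand, so binding at EED cannot be told apart from binding at that gene. The 151 bases around the SUZ12 summit of palbociclib replicate 1 are given next, with GGGCGG and the NF-Y letters CCAAT in capitals.
SUZ12, chr17:31936842-31936992, plus strand: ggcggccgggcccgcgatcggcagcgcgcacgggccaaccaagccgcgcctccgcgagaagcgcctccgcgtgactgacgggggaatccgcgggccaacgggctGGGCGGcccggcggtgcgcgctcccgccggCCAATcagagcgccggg

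SUZ12 has a pseudogene copy, SUZ12P1, on the same chromosome, and the 645 bp under the SUZ12 palbociclib peaks matched the start of that copy with 27 single-base edits, insertions and deletions included (95.8% identity). SUZ12P1, which was looked up after the values of SUZ12 were seen, had peaks of its own, with fold enrichments of 5.62 in DMSO replicate 1, 14.3 in palbociclib replicate 1 and 14.4 in palbociclib replicate 2. How reads that fit both places were divided was not given in the sources used here, so the values of SUZ12 are uncertain to that extent, and a DMSO signal was called at the copy and not at the gene.

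**Figure D2:**
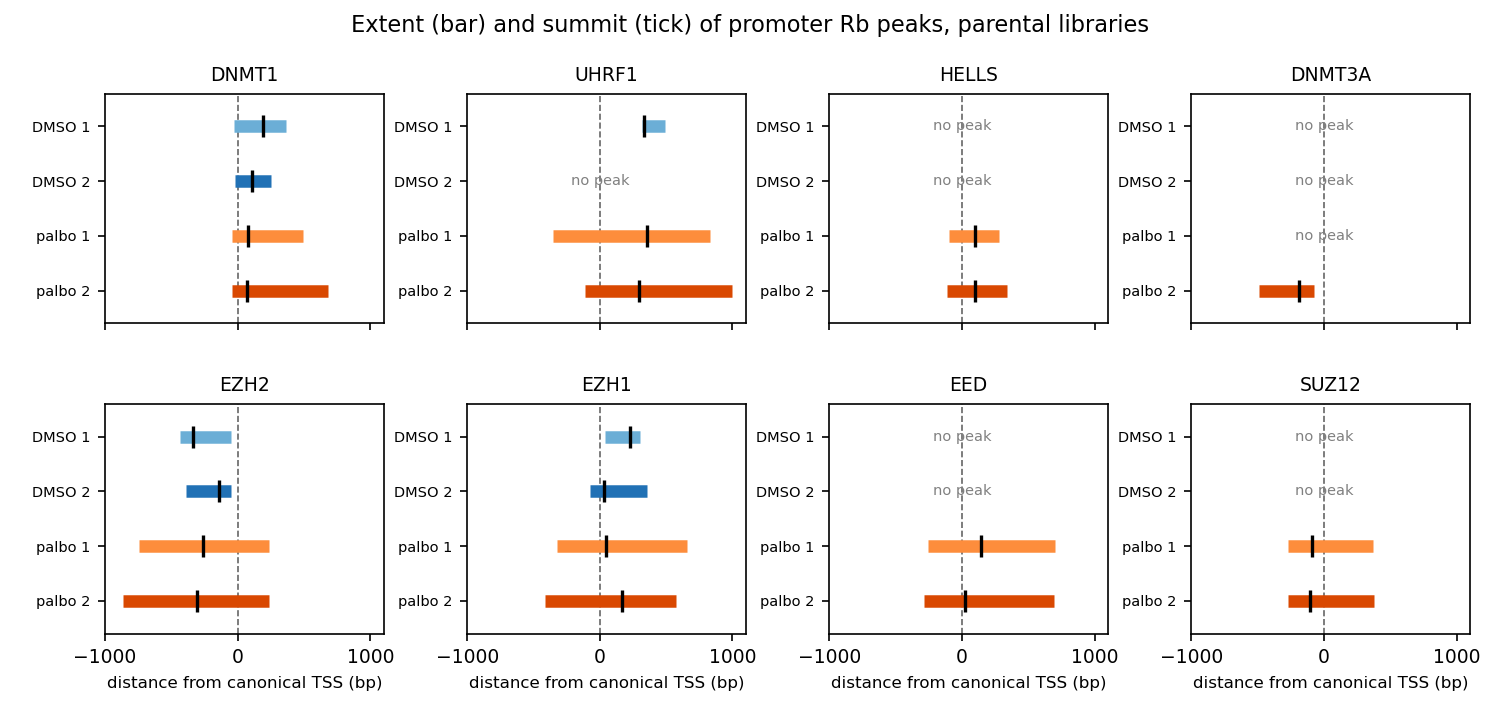
Promoter Rb peaks of 8 genes in the 4 parental libraries as distance from the canonical TSS in bp, where bars give the called extent, ticks the summit and the dashed line the TSS. The palbociclib peaks of EZH2 and EZH1 span the TSS on both sides at 976 to 1096 bp, whereas those of DNMT1 begin 42 bp before it and run into the gene, and DNMT3A has a single bar.

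Taken by mean fold enrichment with palbociclib, the order was EZH2, DNMT1, EZH1, SUZ12, UHRF1, EED and HELLS, with ranks of 76, 151, 163, 717, 1172, 2593 and 5338 among 6974 genes. DNMT1 and EZH1 were not separated beyond their spread, since the 2 EZH1 values lay on either side of both DNMT1 values. The values of the other neighbours in this order did not overlap, although SUZ12 and UHRF1 came within a narrow margin of each other, at 17.7 and 17.1. The median over the 6974 genes was 8.36, so 6 of the 7 genes lay above it and HELLS, at 5.81 ± 0.0347 (SD, n = 2), below. By pileup the order was EZH2, EZH1, DNMT1, SUZ12, UHRF1, HELLS and EED, with means from 90.5 ± 4.95 to 15 ± 5.66 fragments (SD, n = 2).

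**Figure D3:**
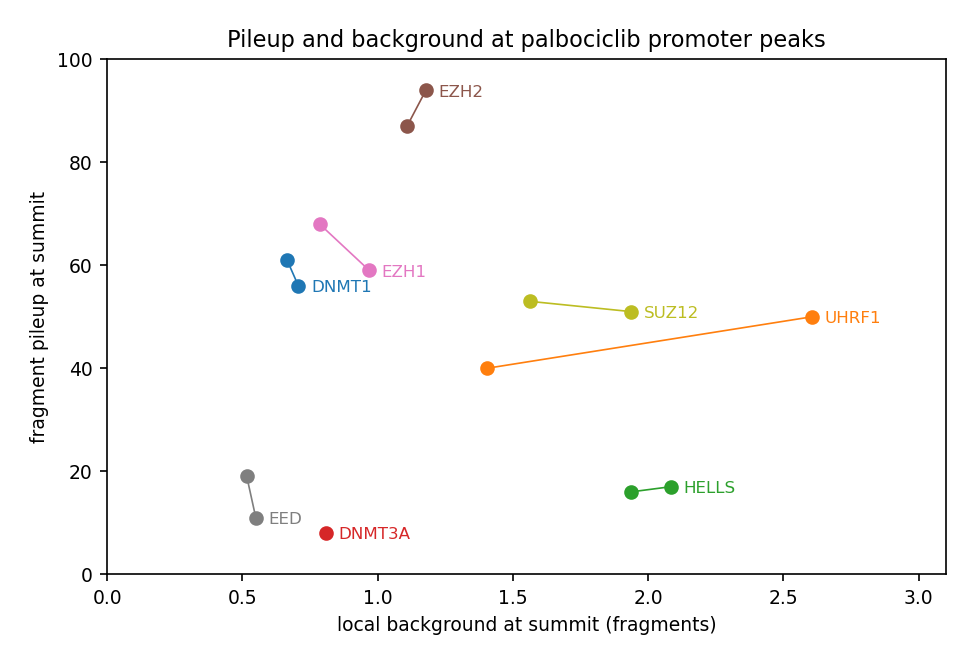
Fragments at the summit against local background for the palbociclib promoter peaks, with 1 point per library and a line joining the libraries of a gene. HELLS and EED lie at similar heights, 11 to 19 fragments, but HELLS has a background of 1.94 and 2.08 and EED one of 0.516 and 0.549.

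The difference between treatments at DNMT1, EZH1 and EZH2 was set beside that of all 580 protein-coding genes bound in all 4 parental libraries. In every one of these genes both palbociclib values lay above both DMSO values, for fold enrichment (100% of the genes) and for peak width (100%), so the separation at these genes is not particular to them. The median log2 difference in fold enrichment was 1.87 for DNMT1, EZH1 and EZH2 and 1.88 for the 580 genes, whose quartiles were 1.64 and 2.13. EZH2 exceeded 49.5% of the 580 genes and DNMT1 17.2%. EZH1 exceeded 96.2%, and 94.5% of the 290 genes that had the lower mean log2 values with DMSO, among which EZH1 falls. Peak width differed by 0.94 on the log2 scale at DNMT1, 1.54 at EZH1 and 1.52 at EZH2, beside a median of 1.47 over the 580 genes (exact permutation p = 0.333 for each, two-sided).

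**Figure D4:**
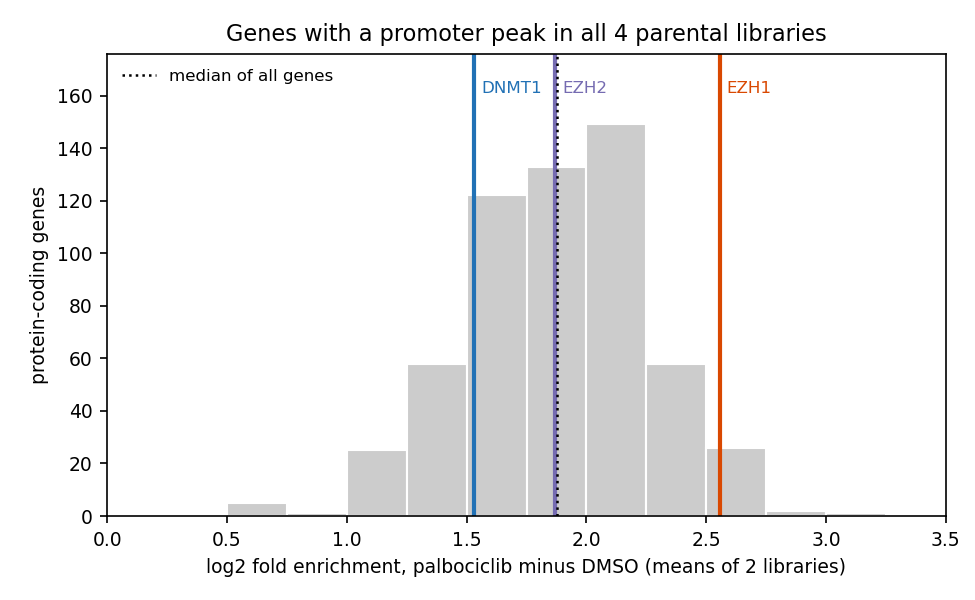
Distribution of the log2 difference in fold enrichment, palbociclib minus DMSO, over the 580 protein-coding genes bound in all 4 parental libraries, with coloured lines at DNMT1 (1.53), EZH2 (1.87) and EZH1 (2.56) and a dotted line at the median (1.88). EZH2 sits on the median and EZH1 in the upper tail.

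The genes with parental values nearest to those of DNMT1, EZH1 and EZH2 were listed as well. Nearness was the smallest Euclidean distance of log2 fold enrichment over 4 libraries, among 579 other genes. Such genes were picked for their likeness, so their levels follow from the choice and are no separate evidence. CCM2 and ZNF324B were nearest to EZH1, at distances of 0.262 and 0.329, FOXN2 and DIXDC1 to EZH2, at 0.159 and 0.188, and ZNF718 and HNRNPUL1 to DNMT1, both at 0.253. CCM2, for instance, had fold enrichments of 5.20 and 5.40 after DMSO, then 27.9 and 35.6 after palbociclib.

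The E2F letters were found more often at these genes than at bound promoters at large, as a description of the reference sequence. In the 300 bases from 250 before to 50 after the canonical TSS, read alike for every protein-coding gene, 6 of the 9 genes held a match (DNMT1, UHRF1, HELLS, EZH1, EZH2 and SUZ12), beside 4.37% of all genes. EED, DNMT3A and DNMT3B had none in this stretch. In the promoter table of RefSeq (GRCh38.p14), all 9 genes were matched by symbol with 17 entries, 7 entries from the same 6 genes held the letters, and 3.31% of 35116 entries did so overall. Within 100 bp of the palbociclib summits, 3 of 7 genes held a match in each library (DNMT1, EED and SUZ12 in replicate 1, and DNMT1, UHRF1 and SUZ12 in replicate 2), beside 5.79% and 6.03% of all promoter peaks of genes bound in both. Within 300 bp, a distance chosen after the values were seen, it was 7 of 7 in replicate 1 and 6 of 7 in replicate 2, where EZH2 fell out, beside 14.6% and 14.4%. No match says only that these letters are not in the window.

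Other promoter letters were counted in the same windows. GGGCGG was present within 100 bp of the summit at 5 of 7 genes in replicate 1 and 4 of 7 in replicate 2, beside 69.9% and 70.6% of promoter peaks, and CCAAT at 3 of 7 in each, beside 25.6% and 26.2%. The CHR letters TTTGAA, known from promoters of genes expressed late in the cell cycle, lay near the summit of SUZ12 alone (1 of 7 in each library, beside 3.31% and 3.46%). The NRF1 letters CGCATGCG lay near the summit of EZH1 in replicate 1 (1 of 7, beside 2.21%) and near none in replicate 2 (beside 2.44%). TGACGTCA was near none of the 7 summits in either library, beside 1.1% and 1.09% of promoter peaks, and CCGGAAGT likewise near none, beside 3.19% and 3.34%, so 0 of 7 is close to either share. The joined palbociclib regions of the 8 genes were rich in G and C, from 60.2% at EED to 83.8% at DNMT3A, beside a median of 69.2% over 5555 promoter regions. The 151 bases around the single DNMT3A summit are shown for contrast, with the GGGCGG letters in capitals. The whole peak of 413 bp held 3 copies of GGGCGG and no E2F match.
DNMT3A, chr2:25342036-25342186, minus strand: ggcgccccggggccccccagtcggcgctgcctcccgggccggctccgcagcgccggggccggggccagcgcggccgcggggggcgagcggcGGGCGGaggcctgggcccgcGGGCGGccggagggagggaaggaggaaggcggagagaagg

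The remaining genes of both pathways were described from lists written by hand. Of 22 other DNA methylation genes, 10 were bound in both palbociclib libraries (45.5%, beside 34.9% of all genes). In both DMSO libraries 3 were bound (13.6%, beside 2.90% of all genes). Those 3 were PCNA, the sliding clamp of replication, LIG1, the ligase that joins Okazaki fragments, and CDCA7L, a relative of the HELLS partner CDCA7. LIG1 had fold enrichments of 8.68 and 10.6 after DMSO, then 50.8 and 56.8 after palbociclib, above those of DNMT1 with palbociclib, and PCNA had 8.99 and 7.82, then 39.5 and 37.5. CDCA7L was lower, with 3.68 and 4.86, then 10.0 and 8.79. MBD1, a reader of methylated CpG, was the third highest of the list with palbociclib, at 18.0 and 18.3, and had no DMSO peak. TET1, TET2 and TET3, which oxidise methylated cytosine, were among 8 of the 22 genes with no peak in any parental library. Such absence was common at large, since 39.6% and 39.0% of all genes had a promoter peak in palbociclib replicates 1 and 2. TDG had a peak in the IgG2a library alone, with a fold enrichment of 4.14.

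Of 11 other PRC2 subunits and inhibitors, 7 were bound in both palbociclib libraries (63.6%, beside 34.9% of all genes). In both DMSO libraries 2 were bound (18.2%, beside 2.90% of all genes). PHF1, an accessory subunit that reads histone H3 methylation, resembled EZH2, with 8.58 and 11.9 with DMSO and 46.1 and 38.2 with palbociclib. LCORL, whose locus also encodes an accessory subunit, had 6.37 and 7.36, then 21.8 and 20.7. PHF19, a paralogue of PHF1, had no DMSO peak and values of 8.51 and 19.4 with palbociclib. RBBP4 and RBBP7, the histone-binding subunits of the core complex, were bound with palbociclib only, a pattern seen at 28.4% of all genes. JARID2, AEBP2 and EZHIP had no parental peak. That too was common, since 39.6% and 39.0% of all genes had a promoter peak in palbociclib replicates 1 and 2. These 5 genes, the TET genes and TDG were named after their values were seen.

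Polycomb repressive complex 1 (PRC1), which ubiquitinates histone H2A, was set beside PRC2. So was an opposing list of enzymes that remove both Polycomb marks and partner proteins of these enzymes. Of 21 PRC1 genes, 14 were bound in both palbociclib libraries (66.7%, beside 34.9% of all genes). These 14 had no peak in either DMSO library, and neither did 5663 of the 6974 protein-coding genes bound in both palbociclib libraries. That 0 of 21 were bound in both DMSO libraries is close to the 2.90% of all genes. CBX8 had fold enrichments of 17.0 and 23.9, PHC2 15.3 and 13.4 and PCGF2 12.9 and 12.1, all below those of EZH2, EZH1 and DNMT1. Of 6 genes on the opposing list, 5 were bound in both palbociclib libraries (83.3%, beside 34.9% of all genes). BAP1, which removes ubiquitin from histone H2A, was the only one bound with DMSO (1 of 6, 16.7%, beside 2.90% of all genes in both libraries). Its values were 6.74 and 7.82 with DMSO and 28.9 and 34.0 with palbociclib. KDM6B, a lysine 27 demethylase, had 7.75 and 10.5, and ASXL2, a partner of BAP1, had 8.85 and 6.48, both with palbociclib only. No gene of the PRC2, PRC1 and opposing lists had a peak in the IgG2a or RB1 KO libraries. Over all genes those shares were 1.95% and 0.0100%, so finding none is close to the background. These lists were chosen with earlier results of these data known, and the shares are descriptions.

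**Figure D5:**
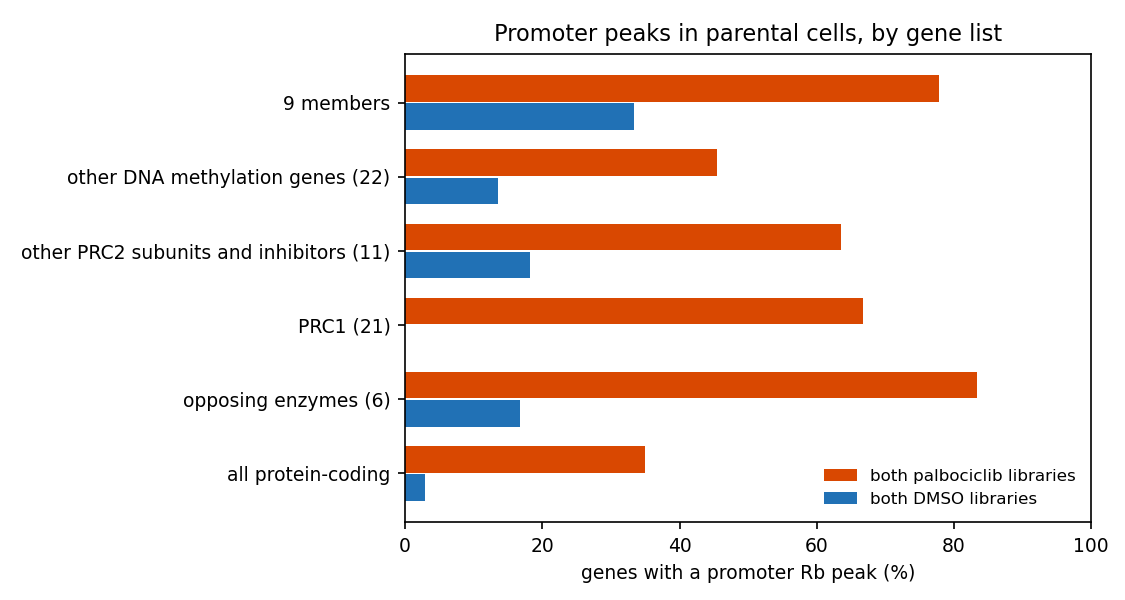
Share of genes with a promoter Rb peak in both palbociclib libraries (orange) and in both DMSO libraries (blue) for the 9 genes, the 4 other lists with their sizes in brackets and all 19970 protein-coding genes. Every list lies above the 34.9% of all genes with palbociclib, and PRC1 has no gene bound in both DMSO libraries, beside 2.90% of all genes.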

How the data were processed

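Reads had been trimmed (BBDuk), mapped to hg38 (Bowtie2 2.3.4.1) and cleared of mitochondrial and blacklisted alignments, with duplicates retained, as the methods of the study describe. The authors then called peaks library by library (MACS2 2.2.7.1, paired-end) against an IgG control at a q-value of 0.05. The control for the IgG2a list itself is not given in the sources used here. The deposited peak lists give, per the MACS2 format, the fold enrichment (a ratio) at the summit and its −log10 p and −log10 q. Read counts were not used here, so no count model was run.

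Peaks were assigned by an overlap of at least 1 bp to promoter windows of GENCODE 44 transcripts (pandas 2.3.3, pysam 0.24.0). Where several peaks met a gene, the one with the highest fold enrichment stood for it. Whole-number pileup and background were recovered from fold enrichment and −log10 p, which fitted within 0.0055. The assignment, recovery and motif search were tested on simulated data. Fold enrichment and width were compared on the log2 scale by exact permutation tests, two-sided, in parental libraries only. With 6 splits the smallest p is 0.333. The SUZ12 region was aligned to its copy with edlib 1.3.9.post1.

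Groups and replicate numbers came from the sample titles. Same-numbered DMSO and palbociclib libraries did not establish pairs. Named were all 9 genes, of each other list the 3 highest with palbociclib and those bound in both DMSO libraries, and the 2 genes nearest to each gene bound in all 4 parental libraries. Genes sharing a promoter peak were named too. SUZ12P1, TDG, TET1, TET2, TET3, RBBP4, RBBP7, JARID2, AEBP2 and EZHIP fall outside this rule and were named after their values were seen. The genes, lists and motifs were chosen with earlier results of these data known. Alternatives covered the window, transcripts, overlap, peak cutoffs, list length, scale, pairing and leaving out each parental library.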

Additional observations from a re-analysis of the deposited data

How the results depend on the processing

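Limiting each parental list to 816 peaks by −log10 q left 4 genes bound in both palbociclib libraries in place of 7 (beside 3.82% of all genes), and 1 gene bound only with palbociclib in place of 3 (beside 0.736%). Requiring a −log10 q of at least 5 raised the latter count to 5 (beside 23.3% of all genes), as the DMSO peaks of EZH1 and UHRF1 fell below that limit. The other alternatives kept every count within 1.5 times its value, among them a window from 500 bp before to 100 bp after the TSS, protein-coding transcripts, the summit inside the window, a fold enrichment of at least 5 and, chosen after seeing the data, the canonical TSS alone. With one parental library left out in turn, the median log2 difference of DNMT1, EZH1 and EZH2 ranged from 1.67 to 2.08, and UHRF1 and DNMT3A each counted as bound once the library without their peak was dropped. Pileup over the background floor gave 1.86 in place of 1.87. Taking ratios within the same replicate number (replicate block) left the median at 1.87, with a smallest exact p of 0.5 for 2 pairs. Deviations of same-numbered libraries from their group means correlated at 0.0648 over 580 genes, so the numbers were not used as pairs. Single RB1 KO and IgG2a libraries and 2 libraries per parental group limit every comparison, and peaks resting on fewer than 5 fragments were not called at promoters.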

Other observations

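Across all protein-coding genes, 873 held the E2F letters in the 300 bases from 250 before to 50 after the canonical TSS, and 60.0% of these were bound by Rb in both palbociclib libraries, against 33.8% of the 19097 genes without them. In both DMSO libraries the shares were 12.0% and 2.49%. These are counts over genes of the same libraries, with no test. DNMT1, EZH1 and EZH2 belonged to the genes with the letters that were bound under both treatments, UHRF1, HELLS and SUZ12 held the letters and were bound in both palbociclib libraries but not in both DMSO libraries, and EED was bound with palbociclib without the letters in that stretch.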
